A study of Drosophila melanogaster with 11 samples.

Results

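A set of 10 heat shock and chaperone genes was followed in the nascent RNA of *Drosophila* Kc cells: *Hsf*, *Hsp83*, *Hsc70-4*, *Hsp68*, *Hsp22*, *Hsp23*, *Hsp26*, *Hsp27*, *Hsp67Bc* and *DnaJ-1*. The genes were chosen by name, with earlier results of these data known. All were found by their FlyBase symbols, and they are 10 of the 17771 genes in the count table. Reads were counted on 9 of them, and *Hsp22* had 0 counts in every library. After knockdown of *M1BP*, which encodes a zinc-finger activator that binds the core promoter element Motif 1, 7 of the 9 measured genes rose over mock. Of all 9511 genes tested in that comparison, 16.5% were called higher. After knockdown of *mod(mdg4)*, with dsRNA that the study made specific for its *gypsy* insulator isoform, none of the 9 passed the test. Few genes passed in that comparison at all, with 0.32% of 9066 genes tested called higher and 0.408% lower.

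Kc cells are a female embryonic line of hemocyte character, and all groups were taken from this line. The dsRNA was delivered by electroporation, cells were grown for 5 days at 25 °C, and newly made RNA was labeled for 1 h by adding the uridine analog 5-ethynyl uridine (EU) at 0.2 mM, which allowed the labeled RNA to be captured for sequencing. The groups were *M1BP* knockdown (20 µg of dsRNA, replicates 2 and 3), *mod(mdg4)* knockdown (5 µg, replicates 1 and 2), a single library labelled *Cp190* knockdown (12 µg, replicate 1) and mock transfected cells without dsRNA (replicates 1 to 4). Since mock cells received no dsRNA and each knockdown received its own amount, the target and the amount of dsRNA cannot be told apart. RNA interference is transient and acts on a cell population, and in bulk RNA fewer cells making a transcript and less transcript per cell cannot be told apart. The study describes its RNA-seq replicates as biological, while the labels do not say how the libraries of a group were grown, and p-values measure the spread between these libraries.

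Total counts were 13181160 and 11312004 after *M1BP* knockdown, 11808443 and 7462623 after *mod(mdg4)* knockdown, 9476448 in the library labelled *Cp190* knockdown, and between 24944604 and 29680851 in mock libraries. A count of 3 corresponded to at most 0.349 CPM (normalized counts scaled to library size) in any library, and this floor covers counting error only. *M1BP* itself had 21.5 and 31.8 CPM after *M1BP* knockdown, against 44.2, 45.2, 54.5 and 54.0 CPM in mock (log2 fold change -0.86 ± 0.20 SE, adjusted p = 0.0145, edgeR). *Cp190* had 4374 CPM in the library labelled *Cp190* knockdown, against 339 to 460 CPM in mock, higher where the label implies lower. The cause was not tested, and whether the label is right is not known, so no direction is tied to loss of *Cp190*. Of 8 hemocyte markers, 6 were detected well above the floor in every library, while *NimC1* and *He* stayed at or below 25 counts. Their summed level was 4230 and 3766 CPM after *M1BP* knockdown, 4868 and 3147 CPM after *mod(mdg4)* knockdown, 3142 CPM in the single library with the *Cp190* label and 4269 to 6385 CPM in mock. After *M1BP* knockdown 2 of these markers rose and 3 fell, and the part of these changes in the results below was not tested. Of 4 markers of other lineages *Mhc*, a muscle gene, rose (139 and 58 counts after *M1BP* knockdown, against 63 to 91 in deeper mock libraries). The neuronal gene *elav* had 143 and 177 CPM after *M1BP* knockdown, 173 CPM in the library with the *Cp190* label and 76.3 to 128 CPM in mock (log2 fold change after *M1BP* knockdown 0.63 ± 0.22 SE, adjusted p = 0.0584, edgeR), and its part in the results was not tested either.

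Heat shock genes are the textbook case of rapid, inducible transcription. Heat shock factor, encoded by *Hsf*, trimerizes under proteotoxic stress and binds heat shock elements upstream of its targets, where paused RNA polymerase II is released into elongation. The products hold or refold damaged proteins: Hsp70 family members and Hsp90 use ATP, J-domain proteins pass clients to Hsp70, and small heat shock proteins bind unfolded clients without ATP. Several members, such as *Hsp83* and *Hsc70-4*, are also transcribed strongly in unstressed cells.

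Motif 1 sequences listed by the study near these genes are shown because M1BP binds this element. They are 15-base matches with the positions of the 9-base core GGTCACACT in capitals, each read 5′ to 3′ on the strand of the match, on the dm6 assembly.
Hsp68, downstream match: ggtacGGTTACCCTg
Hsp68, upstream match: gatacGGTCATACTg
DnaJ-1, upstream match: cttacGGTCACACTg
Gp93, nearest upstream match: aatacGGTCACTCTg
P58IPK, downstream match: tctacGGTCGCACCg
The downstream *Hsp68* match (chr3R:24057003-24057017, plus strand) lies 300 bases inside the gene, from its start to the middle of the match, and differs from the core at 2 positions. The upstream one (chr3R:24058312-24058326, plus) lies 1009 bases before the start of *Hsp68* but only 32 bases from that of *SMC1*, with 1 core difference. The *DnaJ-1* match (chr3L:5752914-5752928, minus) has the complete core, 732 bases upstream of *DnaJ-1* and 52 bases from the start of *Usp47*. *Gp93* and *P58IPK*, described below with other chaperones, have the printed matches 19 bases upstream (chr3R:27948685-27948699, plus) and 299 bases downstream (chr3R:9587234-9587248, minus) of their own starts. These differ from the core at 1 position for *Gp93* and at 2 for *P58IPK*. Among further matches, complete cores lie 2 bases upstream of *Droj2*, 36 bases upstream of *Roe1*, 203 bases inside *Cdc37* and 238 bases upstream of *Xbp1*. *Droj2*, *Cdc37* and *Roe1* were not called after *M1BP* knockdown (log2 fold change 0.12, 0.00 and -0.40), while *Xbp1* fell. Of all 17771 genes 10.3% had a match used here within 1000 bases and 4.47% within 100 bases. A link between matches and changes was not tested. A match for *Hsf*, with the complete core, lies 791 bases upstream of it and 1 base from the start of *Pcl*, and the sequence of this match is not printed. No match near *Hsp83*, *Hsc70-4* or a small heat shock gene of the set was among the 1999 listed matches used here, which are only part of the study's list, so nothing follows from that. The list does not say whether it counts from 0 or 1, so positions may be off by 1 base.

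Of the set, 5 genes lie within 14184 bases of chromosome arm 3L, at chr3L:9371511-9385694, a cluster that holds 9 annotated genes. These are *Hsp67Bc* (chr3L:9371511-9372497, minus strand), *Hsp22* (chr3L:9372931-9374964, plus), *Hsp26* (chr3L:9376418-9377427, minus), *Hsp23* (chr3L:9381882-9382765, plus) and *Hsp27* (chr3L:9384063-9385694, plus). *Hsp83* (chr3L:3192969-3197059, plus) and *DnaJ-1* (chr3L:5750029-5752189, minus) lie elsewhere on the same arm. *Hsp68* (chr3R:24055080-24057310, minus) and *Hsc70-4* (chr3R:15242687-15246614, plus) are on 3R, and *Hsf* (chr2R:18130303-18134634, minus) is on 2R. Reads were counted over the whole gene, introns included. Introns not covered by any exon make up 1422 bases of *Hsf*, 1131 of *Hsp83* and 1212 of *Hsc70-4*, while the 4 measured small heat shock genes, *Hsp68* and *DnaJ-1* have 0 such bases.

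*Hsp22*, which encodes a small heat shock protein of mitochondria, could not be measured. All 2034 bases of its annotation lie inside *CG4456* on the same strand, and that gene extends only 209 bases beyond it. A count that drops reads shared by genes of a strand gives such reads to neither, and *CG4456* itself had between 0 and 8 counts. The 0 counts of *Hsp22* are therefore no measure of its transcription.

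*Hsf*, the transcription factor of the set, differed little between groups. It had 184 and 181 CPM after *M1BP* knockdown, against 170, 166, 165 and 163 CPM in mock. Both knockdown libraries were above all mock libraries, but the log2 fold change of 0.16 ± 0.11 (SE) did not pass (adjusted p = 0.309, edgeR). Its 95% interval ran from -0.09 to 0.42. After *mod(mdg4)* knockdown it had 174 and 144 CPM, on both sides of the mock range.

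*Hsp83*, the cytosolic Hsp90 of the fly, which matures kinases and other signalling proteins, rose after *M1BP* knockdown. It had 3129 and 2969 CPM after *M1BP* knockdown, against 1490, 1502, 1332 and 1321 CPM in mock. The groups were well apart, and the log2 fold change was 1.14 ± 0.13 (SE; adjusted p = 0.00066, edgeR).

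*DnaJ-1*, an Hsp40 type J-domain protein that delivers clients to Hsp70, rose by the same log2 fold change of 1.14 ± 0.13 (SE; adjusted p = 0.00056, edgeR). It had 2481 and 2115 CPM after *M1BP* knockdown, against 1037, 1055, 1076 and 1076 CPM in mock. Its mock libraries lay closest together of all members, with an SD of 1.79% of the mean.

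*Hsp68* and *Hsc70-4* both belong to the Hsp70 family, *Hsp68* as a heat-inducible member and *Hsc70-4* as the constitutive cytosolic cognate. *Hsp68* had 1313 and 1633 CPM after *M1BP* knockdown, against 394, 370, 210 and 231 CPM in mock, with a log2 fold change of 2.32 ± 0.26 (SE; adjusted p = 0.00049, edgeR). *Hsc70-4* had 2848 and 2464 CPM after *M1BP* knockdown, against 2544, 2360, 1749 and 1722 CPM in mock. The *Hsc70-4* groups overlapped, and its log2 fold change of 0.37 ± 0.20 (SE) did not pass (adjusted p = 0.187, edgeR), with a 95% interval from -0.07 to 0.81.

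The 4 measured small heat shock genes of the set, all in the 3L cluster, rose after *M1BP* knockdown. *Hsp27*, whose protein is found in the nucleus, had 560 and 543 CPM after *M1BP* knockdown, against 123, 104, 94.7 and 116 CPM in mock, a log2 fold change of 2.36 ± 0.14 (SE; adjusted p = 2.9e-05, edgeR). *Hsp26*, a cytosolic small heat shock protein gene, had 1499 and 1386 CPM after *M1BP* knockdown, against 390, 320, 259 and 262 CPM in mock, a log2 fold change of 2.26 ± 0.18 (SE; adjusted p = 0.00011, edgeR). For both genes every knockdown library was more than 3 times the highest mock library. *Hsp23*, also cytosolic, had 670 and 789 CPM after *M1BP* knockdown, against 211, 174, 110 and 125 CPM in mock, a log2 fold change of 2.26 ± 0.24 (SE; adjusted p = 0.00042, edgeR).

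*Hsp67Bc*, whose product works with the BAG-domain co-chaperone Starvin in clearing misfolded protein, was the faintest measured member. It had 6.63 and 10.1 CPM after *M1BP* knockdown, from 81 and 109 counts, against 3.21, 3.32, 2.75 and 1.96 CPM in mock, from 84, 96, 75 and 49 counts. Its log2 fold change of 1.6 ± 0.32 (SE) passed the test (adjusted p = 0.0073, edgeR), and the knockdown libraries lay above all mock libraries. Against mock replicates 1 and 2 alone it no longer passed (log2 fold change 1.40, adjusted p = 0.058, edgeR).

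**Figure D1:**
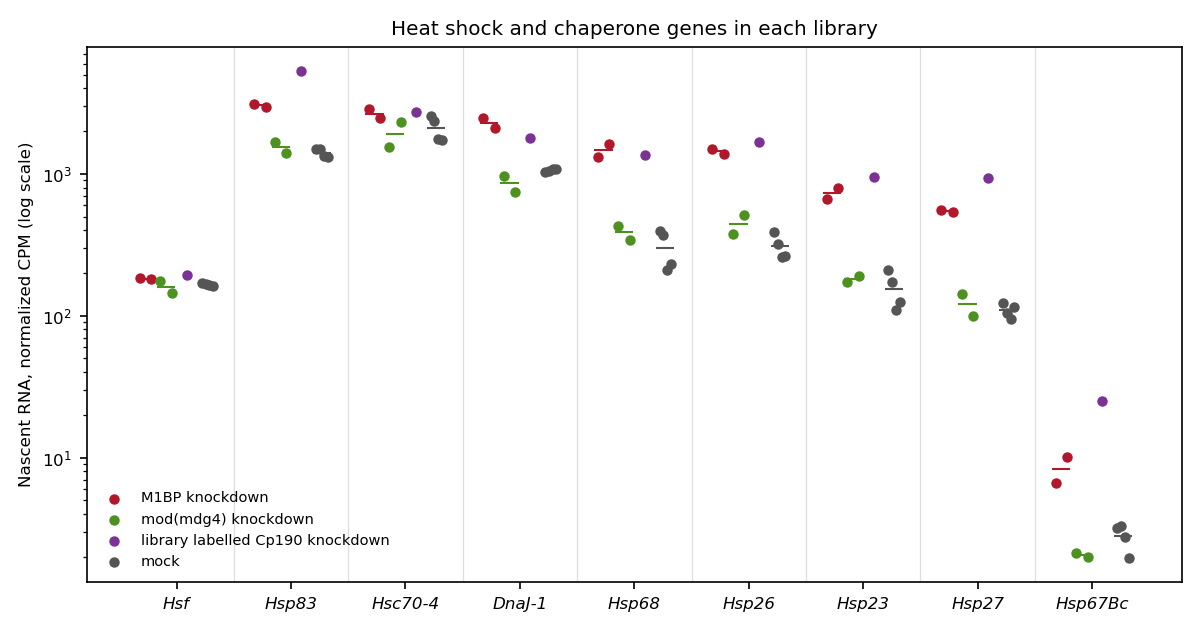
Normalized CPM (log scale) of the 9 measured heat shock and chaperone genes in each library; points are libraries and bars the mean of groups with more than 1 library. After *M1BP* knockdown (red) *Hsp83*, *DnaJ-1*, *Hsp68* and the small heat shock genes lie above all 4 mock libraries (gray), the *mod(mdg4)* knockdown (green) lies near mock, and the library labelled *Cp190* knockdown (purple) lies above mock for all 9.

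Thus 7 of the 9 measured members were called higher and 0 lower after *M1BP* knockdown, where 16.5% of the 9511 genes tested were called higher and 11.5% lower. None of the 9 had a negative log2 fold change, and their median was 1.6, beside -0.03 over all genes tested. DESeq2 also called 7 members higher and 0 lower (16.4% of genes higher and 11.9% lower). Both *M1BP* knockdown libraries lay above every mock library for 8 of the 9, all but *Hsc70-4*, as they did for 23.3% of genes tested. The 9 members together took 1.18% and 1.15% of all counts after *M1BP* knockdown, against 0.667%, 0.614%, 0.459% and 0.487% in mock.

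Mock replicates 1 and 2 resembled each other more than they did replicates 3 and 4, and some members differed between these pairs. Correlations of log2 CPM across 6916 genes, which are not independent replicates, were 0.997 and 0.996 within the pairs and between 0.980 and 0.989 across them. For 7 of the 9 members replicates 1 and 2 both lay above replicates 3 and 4, and the share of all genes with this pattern was not taken. Of these, *Hsc70-4*, *Hsp67Bc* and *Hsp26* were 1.41, 1.39 and 1.36 times as high on average in replicates 1 and 2. *Hsp68* was 1.73 times and *Hsp23* 1.64 times as high in replicates 1 and 2 as in replicates 3 and 4, without overlap. Among all genes 8.64% were at least 1.5 times higher in that direction without overlap and 6.98% in the other. *Hsf* and *DnaJ-1*, at 1.03 and 0.97 times, hardly differed between the pairs. With *M1BP* knockdown set against mock replicates 1 and 2 alone, 6 members rose and 0 fell (8.19% of genes tested were higher and 5.52% lower). Against replicates 3 and 4 alone, 7 rose and 0 fell (8.74% higher and 6.07% lower).

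After *mod(mdg4)* knockdown, 0 of the 9 members were called in either direction by edgeR, where 0.32% of 9066 genes tested were called higher and 0.408% lower. Scaling by library size alone gave 51 higher and 28 lower calls over all genes, beside 29 and 37 with TMM scaling, and still 0 members were called. The members' median log2 fold change was 0.15, beside 0.00 over all genes. The unadjusted p was under 0.05 for 1 member, *Hsp26* (log2 fold change 0.55 ± 0.21 SE, adjusted p = 0.191, edgeR). DESeq2 called 0 members as well, where it called 3.38% of genes higher and 5.1% lower. *Hsp26* had 375 and 511 CPM after *mod(mdg4)* knockdown, which overlapped the mock range of 259 to 390 CPM. *Hsp68* had 430 and 343 CPM after *mod(mdg4)* knockdown, with a 95% interval of its log2 fold change from -0.24 to 1.00. *DnaJ-1*, at 974 and 740 CPM, was the only member whose *mod(mdg4)* knockdown libraries both lay on the same side of the mock range. They were below it, as for 17.7% of genes tested (log2 fold change -0.29 ± 0.13 SE, adjusted p = 0.277, edgeR).

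The remaining members also overlapped the mock libraries after *mod(mdg4)* knockdown. *Hsp83* had 1666 and 1414 CPM after *mod(mdg4)* knockdown (95% interval of the log2 fold change from -0.15 to 0.45). *Hsc70-4* had 1540 and 2311 CPM, *Hsp23* 173 and 190 CPM, *Hsp27* 142 and 99.2 CPM and *Hsp67Bc* 2.14 and 1.98 CPM. The *M1BP* and *mod(mdg4)* comparisons share the same mock libraries.

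The 2 knockdowns were also compared directly, without the mock libraries. All 9 measured members were higher in both *M1BP* knockdown libraries than in both *mod(mdg4)* knockdown libraries, as were 25% of 8757 genes tested, while 28.1% were lower in both. Of the members 5 passed the test, beside 4.84% of 8757 genes called higher and 1.68% called lower. These were *Hsp27* (log2 difference 2.23 ± 0.28 SE, adjusted p = 0.00026), *Hsp23* (2.04 ± 0.27, adjusted p = 0.00045), *Hsp68* (1.96 ± 0.29, adjusted p = 0.001), *Hsp26* (1.73 ± 0.30, adjusted p = 0.0028) and *DnaJ-1* (1.46 ± 0.30, adjusted p = 0.0083), all by edgeR. *Hsp83* missed the threshold at a log2 difference of 1.02 ± 0.29 (SE; adjusted p = 0.0537, edgeR) and passed it in 5 of 12 alternative settings. *Hsp67Bc* also missed it, at 2.05 ± 0.75 (SE; adjusted p = 0.125, edgeR), and passed in 2 of 12. *Hsf* (0.23) and *Hsc70-4* (0.49) passed in 0 of 12. Scaling by library size alone gave 253 higher and 261 lower calls over all genes, beside 424 and 147 with TMM scaling, and the same 5 members passed. DESeq2 called 6 members higher and 0 lower (7.23% of genes higher and 2.11% lower).

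**Figure D2:**
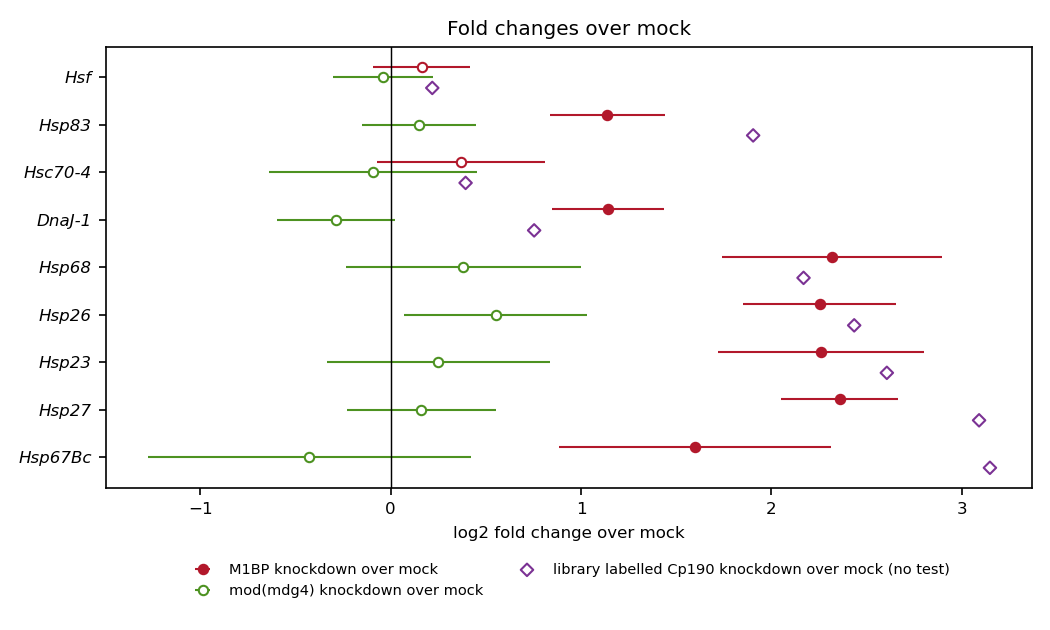
Log2 fold change over mock of the 9 measured genes after *M1BP* knockdown (red) and *mod(mdg4)* knockdown (green), with 95% intervals; filled points have an adjusted p below 0.05, and purple diamonds give the single library labelled *Cp190* knockdown over the mean of 4 mock libraries, without a test. The 7 filled points lie between 1.14 and 2.36, all after *M1BP* knockdown, and no *mod(mdg4)* point is filled.

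In the library labelled *Cp190* knockdown, all 9 measured members lay above every mock library. This single library has no replicate check, and of 8370 genes 39.8% lay above and 41.8% below all mock libraries. At least 2-fold over the mock mean and above every mock library were 6 members, beside 22.7% of genes. The log2 ratio to the mock mean was 3.15 for *Hsp67Bc* (24.9 CPM, from 238 counts), 3.09 for *Hsp27* (933 CPM), 2.61 for *Hsp23* (945 CPM), 2.44 for *Hsp26* (1665 CPM), 2.17 for *Hsp68* (1355 CPM) and 1.90 for *Hsp83* (5284 CPM). *DnaJ-1* (0.75, 1789 CPM), *Hsc70-4* (0.39, 2751 CPM) and *Hsf* (0.22, 193 CPM) had smaller ratios. For 6 members this library was above both *M1BP* knockdown libraries, as for 41.2% of 8470 genes with more than 3 counts in it and on average after *M1BP* knockdown, while 36.2% lay below both. *DnaJ-1* was below both, and *Hsp68* and *Hsc70-4* lay between them. The members took 1.51% of its counts. *M1BP* was also below the mock range in this library, at 34.9 CPM.

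Levels of different genes were compared only per kilobase of gene length, as CPM per kb. After *M1BP* knockdown the order was headed by *Hsp26* (1428 CPM per kb) and *DnaJ-1* (1063), then *Hsp23* (825) and *Hsp83* (745), which overlapped. *Hsc70-4* (676) and *Hsp68* (660), which overlapped, came next, ahead of *Hsp27* (338), *Hsf* (42.1) and *Hsp67Bc* (8.48), and *Hsp68* also overlapped *Hsp83*. After *mod(mdg4)* knockdown *Hsc70-4* (490), *Hsp26* (438), *DnaJ-1* (397) and *Hsp83* (376) were highest, each overlapping the next. In the library labelled *Cp190* knockdown *Hsp26* (1649), *Hsp83* (1292) and *Hsp23* (1069) were highest. In mock cells *Hsc70-4* (533) and *DnaJ-1* (491) stood highest and overlapped, followed by *Hsp83* (345) and *Hsp26* (305), which overlapped, and by *Hsp23* (175) and *Hsp68* (135), which also overlapped. In all groups *Hsp27*, *Hsf* and *Hsp67Bc* were the lowest in this order, without overlap where a group had more than 1 library.

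Heat shock genes act in a wider chaperone network, and 67 other genes of this network in 8 lists were read from the same tests. All 67 are called other chaperone genes here, though some, such as *Xbp1*, are regulators. After *M1BP* knockdown 60 of them were tested, 12 rose, 11 fell and 37 did not pass, with a median log2 fold change of 0.00. Over all genes tested 16.5% were higher and 11.5% lower, and the 6 *Hsp70* copies are among the 12.

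All 6 *Hsp70* copies, the classical heat-inducible chaperones, rose after *M1BP* knockdown, with log2 fold changes from 2.04 to 2.84. These copies are nearly identical, and reads that fit several were dropped in counting, so their split is uncertain and their sum is more secure. Summed, they had 1102 and 1136 CPM after *M1BP* knockdown, against 258, 205, 198 and 189 CPM in mock. They had 354 and 293 CPM after *mod(mdg4)* knockdown, above every mock library, as for 13.3% of the single genes tested. In the library with the *Cp190* label they had 1247 CPM. All 6 log2 fold changes were positive after *mod(mdg4)* knockdown, with a median of 0.75. By edgeR 4 of the 6 had an unadjusted p under 0.05, as did increases of 890 of 9066 genes tested. DESeq2 called 2 of the 6 higher, beside 3.38% of genes. By edgeR *Hsp70Ba* alone of the other chaperone genes was called after *mod(mdg4)* knockdown (log2 fold change 0.95 ± 0.14 SE, adjusted p = 0.0395, edgeR). It had 91.2 and 72.7 CPM there, against 48.9, 41.0, 42.0 and 40.5 CPM in mock. That call was lost when any single mock library was left out, where 0 of all genes tested were called higher.

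Among Hsp90 family genes and co-chaperones 4 of 11 rose and 2 fell after *M1BP* knockdown, beside 16.5% higher and 11.5% lower over all genes tested. *stv*, which encodes the BAG-domain protein Starvin, rose most, with 268 and 250 CPM after *M1BP* knockdown, against 107, 96.5, 73.0 and 76.4 CPM in mock (log2 fold change 1.58 ± 0.17 SE, adjusted p = 0.00042, edgeR). The other 3 that rose, named after their values were seen, were *Stip1*, *p23* and *CG1416*, at 0.62, 0.60 and 0.53. *Gp93*, the Hsp90 of the endoplasmic reticulum (ER), fell by 0.88 on the log2 scale, with 313 and 230 CPM after *M1BP* knockdown, against 472, 515, 530 and 517 CPM in mock (SE 0.16, adjusted p = 0.0048, edgeR). *Trap1*, the mitochondrial Hsp90, also fell, by 0.62. Among the remaining small heat shock genes *CG14207* rose (0.81, 1 of 3 tested). *Hsp67Ba*, which lies inside the 3L cluster, had 35.4 and 46.3 CPM after *M1BP* knockdown, against 42.3, 40.4, 64.2 and 53.1 CPM in mock, which overlapped. *CG4461*, also inside the cluster, missed the threshold (log2 fold change 2.29 ± 0.77 SE, adjusted p = 0.0538, edgeR). It had 38 and 13 counts after *M1BP* knockdown, against 2, 25, 12 and 10 in the deeper mock libraries. DESeq2 called 2 of these 3 small heat shock genes higher and 0 lower.

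The ER list holds regulators of the unfolded protein response, *Xbp1* among them, beside chaperones. Of its 8 genes 3 fell, *Xbp1* included, and 0 rose by edgeR, beside 11.5% lower and 16.5% higher over all genes tested. An increase with an unadjusted p under 0.05 was found for 0 of the 8, and DESeq2 called 4 lower and 0 higher. Of the 8 log2 fold changes 7 were negative. After *mod(mdg4)* knockdown 7 of the 8 were negative too, with 0 called by edgeR and 2 called lower by DESeq2. Between *M1BP* and *mod(mdg4)* knockdown 0 of the 8 were called by edgeR, and DESeq2 called 1 lower. *Xbp1*, a transcription factor of the unfolded protein response, had 1468 and 1095 CPM after *M1BP* knockdown, against 2439, 2305, 2999 and 2494 CPM in mock (log2 fold change -0.97 ± 0.18 SE, adjusted p = 0.006, edgeR). *Hsc70-3*, the ER Hsp70 known as BiP, had 842 and 714 CPM after *M1BP* knockdown, against 1366, 1477, 1927 and 1810 CPM in mock (log2 fold change -1.05 ± 0.19 SE, adjusted p = 0.0047, edgeR). It was the only 1 of 3 tested Hsp70 cognates called. After *mod(mdg4)* knockdown *Hsc70-3* (1179 and 1174 CPM) and *Gp93* (315 and 376 CPM) also lay below every mock library. This held for 17.7% of genes tested, and neither gene was called by edgeR. Between *M1BP* and *mod(mdg4)* knockdown *Hsc70-3*, *Gp93* and *Xbp1* did not pass (adjusted p = 0.259, 0.549 and 0.118, edgeR).

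In the list of J-domain proteins, which leaves out *DnaJ-1*, 3 of 10 tested genes fell and 0 rose by edgeR and DESeq2 alike, beside 11.5% lower and 16.5% higher over all genes by edgeR, and 0 increases had an unadjusted p under 0.05. *P58IPK*, an ER co-chaperone of BiP, had 40.7 and 58.9 CPM after *M1BP* knockdown, against 147, 145, 126 and 133 CPM in mock (log2 fold change -1.44 ± 0.18 SE, adjusted p = 0.00093, edgeR). It was also lower after *M1BP* than after *mod(mdg4)* knockdown (log2 difference -1.25, adjusted p = 0.0157, edgeR). *shv*, a secretory pathway J protein, fell by 1.11 and *Sec63*, of the ER translocation channel, by 0.68 on the log2 scale.

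None of the 13 subunits of the cytosolic chaperonin TRiC and of prefoldin, which fold newly made proteins, passed the test after *M1BP* knockdown by edgeR, while 1 had an unadjusted p under 0.05 and DESeq2 called 1. Of 6 tested mitochondrial chaperone genes 1 rose and 2 fell, beside 16.5% higher and 11.5% lower over all genes tested. *Hsp60A*, the main mitochondrial chaperonin, was not called (944 and 952 CPM after *M1BP* knockdown, against 878 to 1182 CPM in mock). The calls of *Hsp60D* and *Hsp60B* rest on few reads. *Hsp60D* had 21 and 9 counts after *M1BP* knockdown, against 3, 5, 1 and 1 in mock. *Hsp60B* had 0 counts in both *M1BP* knockdown libraries, against 12, 16, 24 and 14 in mock, at least 2.34-fold lower when each knockdown library is set to its floor of 3 counts. *ClpX*, which encodes the unfoldase of a mitochondrial protease and is named after its values were seen, had 113 and 102 CPM after *M1BP* knockdown, against 150, 146, 178 and 166 CPM in mock (log2 fold change -0.54 ± 0.14 SE, adjusted p = 0.0194, edgeR).

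**Figure D3:**
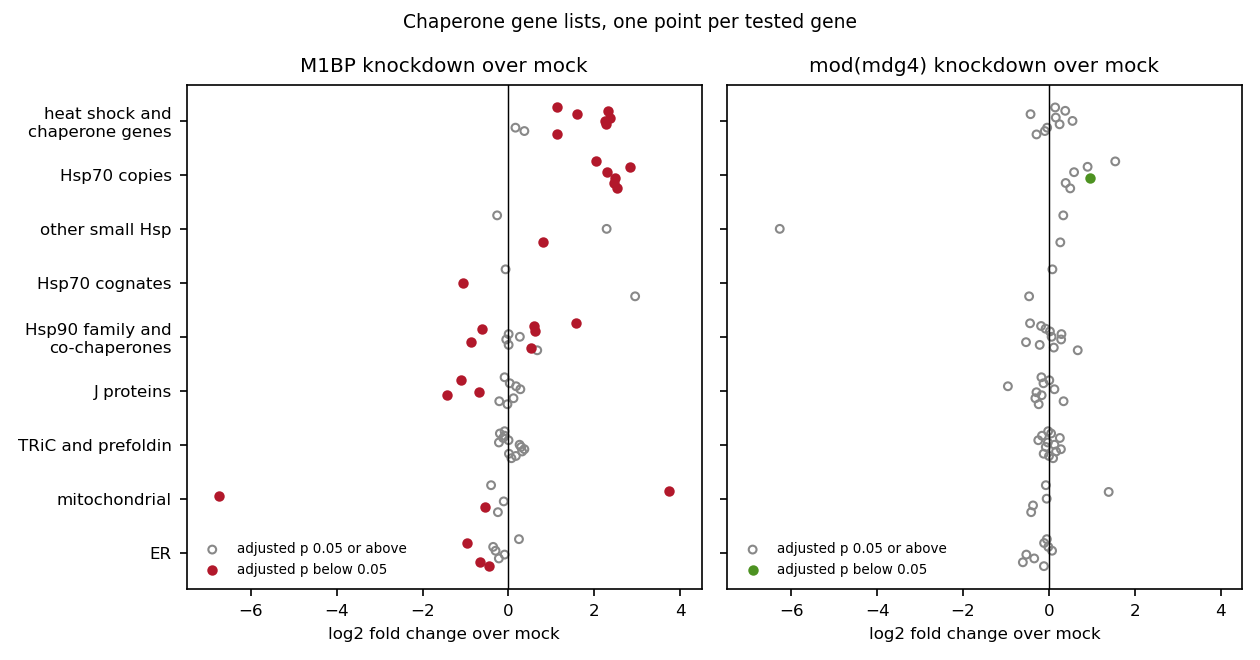
Log2 fold change over mock after *M1BP* knockdown (left) and *mod(mdg4)* knockdown (right) for every tested gene of the set and of 8 other chaperone lists; filled points have an adjusted p below 0.05 by edgeR. On the left the filled points of the set and of the *Hsp70* copies lie above 0 and those of the ER list below 0; the points beyond -6 are *Hsp60B* (left) and *CG4461* (right), both with 0 counts in the knockdown libraries, so their position depends on the prior count of the fit.

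The genes outside the set whose profile over the 9 libraries was most like that of *Hsp26* were found by the root mean square difference of log2 CPM, each gene centred on its own mean, among 6907 genes that had 10 counts or more in each library, the members left out. These were *Hsp70Bb* (0.19), *Hsp70Ab* (0.22) and *Hsp70Aa* (0.23). Within the set *Hsp23* was closest to *Hsp26* (0.20, nearer than *Hsp70Ab*), followed by *Hsp68* (0.27), and *Hsf* was farthest (0.98). For *Hsp83* the nearest outside the set were *CG3376*, *pxb* and *CG7231*, each at 0.19, whose values share its high point in the library labelled *Cp190* knockdown. *CG3376* had 60.2 and 45.3 CPM after *M1BP* knockdown, 25.8 and 23.03 CPM after *mod(mdg4)* knockdown, 70.0 CPM in the library with the *Cp190* label and 23.1 to 26.4 CPM in mock. All libraries share the counting and normalization, so this likeness is a description only.

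**Figure D4:**
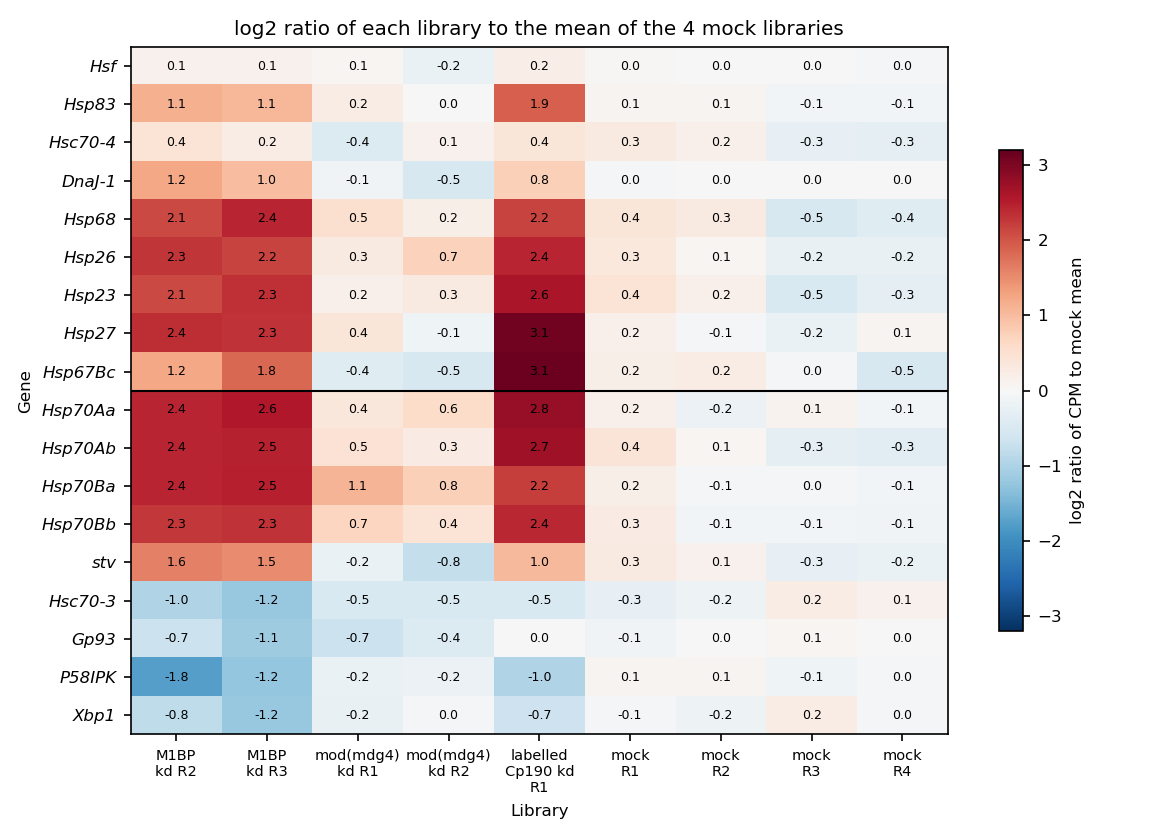
Log2 ratio of the CPM of each library to the mean of the 4 mock libraries, for the 9 measured genes (above the line) and 9 genes of the other chaperone lists (below it). Red is higher and blue lower than the mock mean. The *M1BP* knockdown libraries and the library labelled *Cp190* knockdown are red for the small heat shock genes, *Hsp68*, *Hsp83* and the *Hsp70* copies, and the *M1BP* knockdown libraries are blue for *Hsc70-3*, *Gp93*, *P58IPK* and *Xbp1*.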

How the data were processed

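Nascent RNA of Kc cells was captured after EU labeling and sequenced as 50 bp single-end reads. The authors used cutadapt 2.7 for trimming, HISAT2 2.1.0 for alignment to dm6 and featureCounts 1.6.4 for counting on whole genes by strand. The authors deposited raw counts per gene, without normalization, and used DESeq2 1.22.1 for their own comparisons. Reads that fit several genes or places are dropped by such counting, which bears on *Hsp22* and the *Hsp70* copies.

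Columns were matched to libraries by label, which gave 9 of 11 libraries. A pair of columns (2) was not used, since they have an identical header, that of *Cp190* knockdown replicate 2, and *M1BP* knockdown replicate 1 has no column of its own. *mod(mdg4)* itself was not analysed here, so that knockdown was not checked against its target.

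The quasi-likelihood test of edgeR 4.0.16 (R 4.3.3) was run two-sided on each knockdown against all 4 mock libraries, after TMM scaling and the default expression filter, and genes with a Benjamini-Hochberg value below 0.05 over all genes tested were called. SE was derived from the fold change and its F statistic, and 95% intervals use the t quantile of the fit. CPM share 1 TMM scale over the 9 libraries. Correlations used log2(CPM + 1). The script was tested on simulated data. Alternatives were DESeq2 1.42.0, DESeq2 size factors, upper-quartile or library-size scaling, no filter, a minimum of 10 counts per library, a joint model of all libraries, an adjusted p below 0.01, each mock pair alone, a replicate block and each library left out. A crossed block and same-numbered libraries without a block were added after seeing the data.

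The members and lists were chosen with earlier results of these data known. All members are named. Of the other chaperone genes, the 8 with the largest change past the threshold are named, the *Hsp70* copies as a range, and any others as chosen after their values were seen. *CG14207*, *CG4461*, *Sec63*, *Trap1*, *Droj2*, *Cdc37* and *Roe1* are among those others. Of 74 listed names, 67 matched a gene symbol of the table. Gene positions come from the table, with exons from the Ensembl annotation of dm6. Motif 1 sequences come from the study's supplementary list, of which 1999 matches were used. Promoter sequence was not used here.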

Additional observations from a re-analysis of the deposited data

How the results depend on the processing

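The 7 members higher after *M1BP* knockdown stayed at 7 when any 1 library was left out, and 0 members were called after *mod(mdg4)* knockdown under any of 18 alternatives. Leaving out a knockdown library leaves that group with 1 library, which is then assumed to vary like the others in the fit. After *mod(mdg4)* knockdown 0 of all genes tested were called against either mock pair alone. At an adjusted p below 0.01 or with a mock library left out, 0 were called higher and at most 2 lower. These settings could therefore show little about the members. *Hsp23*, *Hsp26*, *Hsp27* and *Hsp68* were called after *M1BP* knockdown in 19 of 19 alternatives, *Hsp83* and *DnaJ-1* in 18, and *Hsp67Bc* in 16. The exceptions were the replicate block, mock replicates 1 and 2 alone and same-numbered libraries.

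Replicate numbers come from the labels, which do not say that they pair libraries, and deviations of same-numbered libraries correlated at -0.26 for *M1BP* and -0.10 for *mod(mdg4)* knockdown over 6916 genes. With the replicate block (replicates 2 and 3 for *M1BP*, 1 and 2 for *mod(mdg4)* knockdown), 4 members rose after *M1BP* knockdown, 6 other chaperone genes rose and 1 fell, and 2 other chaperone genes rose after *mod(mdg4)* knockdown. Without the block the same-numbered *M1BP* and mock libraries gave 6 members, 6 other genes higher and 4 lower. With crossed pairs, 7 members rose and 6 other genes fell after *M1BP* knockdown, and 3 other genes rose after *mod(mdg4)* knockdown. No paired analysis was possible for *M1BP* against *mod(mdg4)* knockdown because they share only replicate number 2.

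Of the other chaperone genes, 11 were lower after *M1BP* knockdown, but 4 at an adjusted p below 0.01 and 5 against mock replicates 3 and 4 alone. Leaving out 1 library gave 10 to 15 higher and 8 to 11 lower. After *mod(mdg4)* knockdown the 1 gene called higher became 3 with DESeq2, 0 at an adjusted p below 0.01 and 0 against mock replicates 1 and 2 or 3 and 4 alone, while 4 were lower with DESeq2. At an adjusted p below 0.01 and against either mock pair, 0 of all genes tested were called higher. Leaving out 1 library gave 0 to 3 higher and 0 to 2 lower, with 3 and 2 without *mod(mdg4)* knockdown replicate 1.

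Log2 fold changes that turned sign belonged to comparisons in which the gene was not called under any setting. After *mod(mdg4)* knockdown, *Hsf* was 0.0754 with library size only, and from -0.185 to 0.0697 when 1 library was left out. *Hsc70-4* was 0.0285 with library size only, 0.189 against mock replicates 3 and 4, and from -0.443 to 0.163 when 1 library was left out (0.0214 without mock replicate 1). *Hsp23* was -0.0612 against mock replicates 1 and 2, -0.0559 with the replicate block and -0.0555 with crossed pairs. *Hsp27* ran from -0.121 to 0.377 when 1 library was left out. *Hsf* was -0.0106 for *M1BP* against *mod(mdg4)* knockdown with library size only. Library size alone moved the median of all genes by 0.12 after *mod(mdg4)* knockdown and by -0.24 for *M1BP* against *mod(mdg4)* knockdown. The causes were not tested. With 2 libraries in each knockdown group and 1 labelled *Cp190* knockdown, small changes could not be resolved.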
